A study of Mus musculus with 18 samples.

Results

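The secreted Wnt inhibitors examined here are 9 mouse genes, Sfrp1, Sfrp2, Sfrp4, Sfrp5, Frzb, Wif1, Dkk1, Dkk2 and Dkk3. They were found by the gene name of each probe on the array, and all 9 of the listed genes had a probe. Dkk1 had 2 probes and the other 8 genes had 1, so that 10 probes of 41174 and 9 genes of 28922 belong to the group. All mice were female and of the inbred strain FVB/N, and RNA came from flash-frozen whole tissue. The 3 groups were 5 single mammary tumours of genotype ErbB2 knock-in (KI), 2 NIC tumour pools made of 5 tumours each, and 2 normal mammary glands. The sources used here give neither ages, nor the promoter behind either tumour model, nor the meaning of the abbreviation NIC.

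Each RNA was hybridised on 2 arrays with the dyes exchanged, against a universal mouse reference RNA. For 7 of the 10 KI arrays the dye of each channel is given in 2 ways, since the protocol text swaps the dyes of the label field. The field was used. Scanner ratios of the KI arrays, turned by it to sample over reference, correlated with the deposited KI ratios at 0.9825 to 0.9884. Every pair of arrays correlated at 0.241 or more in the deposited ratios, a value that does not depend on the field. Values given below for a single dye rest on the field. A level below is the log2 ratio of the sample over that reference, averaged over the dye pair, so 0 means as much as in the reference and 1 means 2 times as much. Levels of different genes are not comparable, because the reference holds a different amount of each. The 18 arrays gave 9 RNA samples, and the p-values measure the spread between these samples only, except in a block fit of all arrays. That fit, an alternative named where used, also takes in the spread within dye pairs. It assumes 1 correlation within dye pairs for all genes. The normal and NIC arrays share a deposited table while the KI arrays have their own, so in any comparison with KI tumours the group cannot be told apart from its table and platform record.

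Wnt proteins signal by binding Frizzled receptors and the co-receptors Lrp5 and Lrp6, which stabilises β-catenin. The Sfrp proteins (Frzb belongs to them) carry a Frizzled-like domain and bind Wnt proteins outside the cell, as Wif1 does with a domain of its own. Dkk1 binds the Lrp5/6 co-receptors instead, Dkk2 can inhibit or activate depending on the cell, and Dkk3 is a divergent relative that does not act on Lrp6 in the way Dkk1 does. Dkk1 is itself a known target of Wnt/β-catenin signalling, and SFRP1 and WIF1 are known in human breast cancer for silencing by promoter methylation.

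Promoters of 6 of the 9 genes were in the RefSeq table of build GRCm38.p6: Sfrp2, Sfrp5, Frzb, Wif1, Dkk1 and Dkk2. The 250 bases before the start site were searched on both strands for the core letters bound by TCF/LEF factors, the nuclear partners of β-catenin, first as CTTTGA and then, with the other last letter, as CTTTGT. The 3 promoters with a match and, for contrast, that of Wif1 are shown 5′ to 3′ on the strand of the gene, with the matches in capitals. Dkk1 lies at chr19:30549497-30549746 (minus strand), Dkk2 at chr3:132085042-132085291 (plus strand), Frzb at chr2:80447397-80447646 (minus strand) and Wif1 at chr10:121033754-121034003 (plus strand).
Dkk1: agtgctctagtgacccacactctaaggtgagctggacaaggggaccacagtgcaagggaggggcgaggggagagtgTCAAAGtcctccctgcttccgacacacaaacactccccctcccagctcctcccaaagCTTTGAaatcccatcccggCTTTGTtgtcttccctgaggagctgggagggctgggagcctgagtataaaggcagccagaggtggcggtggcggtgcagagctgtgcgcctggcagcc
Dkk2: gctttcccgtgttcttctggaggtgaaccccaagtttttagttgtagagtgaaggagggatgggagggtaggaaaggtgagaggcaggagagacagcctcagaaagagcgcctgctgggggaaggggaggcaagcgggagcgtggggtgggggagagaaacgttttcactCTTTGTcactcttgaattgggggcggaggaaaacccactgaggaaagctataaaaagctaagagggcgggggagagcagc
Frzb: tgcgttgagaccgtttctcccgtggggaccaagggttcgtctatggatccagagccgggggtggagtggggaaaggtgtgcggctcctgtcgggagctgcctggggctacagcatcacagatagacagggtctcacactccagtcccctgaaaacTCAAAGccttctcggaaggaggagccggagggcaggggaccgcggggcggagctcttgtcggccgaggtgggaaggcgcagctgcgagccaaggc
Wif1: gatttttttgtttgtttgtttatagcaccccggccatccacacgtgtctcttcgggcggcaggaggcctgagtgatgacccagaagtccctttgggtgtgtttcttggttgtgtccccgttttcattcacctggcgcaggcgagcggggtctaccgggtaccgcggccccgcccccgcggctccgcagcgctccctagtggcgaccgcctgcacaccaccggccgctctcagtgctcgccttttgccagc
Dkk1 held 3 matches, which start 174, 117 and 98 bases before the start site. Dkk2 held 1, at 80 bases, and Frzb held 1, at 95 bases. No such letters stood in the windows of Wif1, Sfrp2 and Sfrp5. Of 32841 promoter windows of the same length, 27.6% held at least 1 match and 0.776% at least 3. The windows of Dkk1 and Dkk2 also held a TATAAA box, found on the gene's strand in 7.59% of windows. The matches describe the sequence alone. Dkk1, with the 3 matches, had the narrowest range of levels (0.31), and Sfrp5, with none, nearly the same (0.33). Dkk1 was also dim, as given with its values, and any bearing of the matches on levels was not tested.

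Among the 9 inhibitors, Sfrp4 fell in KI tumours against normal glands and no other difference passed the test. In the NIC pools 7 of the 9 lay below both normal glands without a call, in a comparison where 71.2% of all genes had groups that did not overlap in one direction or the other. Calls were made by limma at an adjusted p under 0.05 over all 28922 genes. In KI against normal 1 of 9 inhibitors was called, where 42.7% of all genes were called (24.8% lower and 17.8% higher). In NIC against normal 0 of 9 were called by limma, where 18.6% of all genes were called (9.81% lower and 8.8% higher). In KI against NIC limma called 0 of 9, against 6.13% of all genes (3.24% lower and 2.89% higher). At an unadjusted p under 0.05 the inhibitors that passed numbered 2 in KI against normal (Sfrp4 and Sfrp5), 3 in NIC against normal (Sfrp4, Dkk3 and Wif1) and 2 in KI against NIC (Sfrp2 and Dkk3). Of all 28922 genes, 14796, 11306 and 6413 passed in the same 3 comparisons, so these counts do not set the inhibitors apart. The median difference of the 9 genes was 0.13 in KI against normal, −0.64 in NIC against normal and 0.50 in KI against NIC, beside −0.03, −0.06 and 0.00 over all genes.

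**Figure D1:**
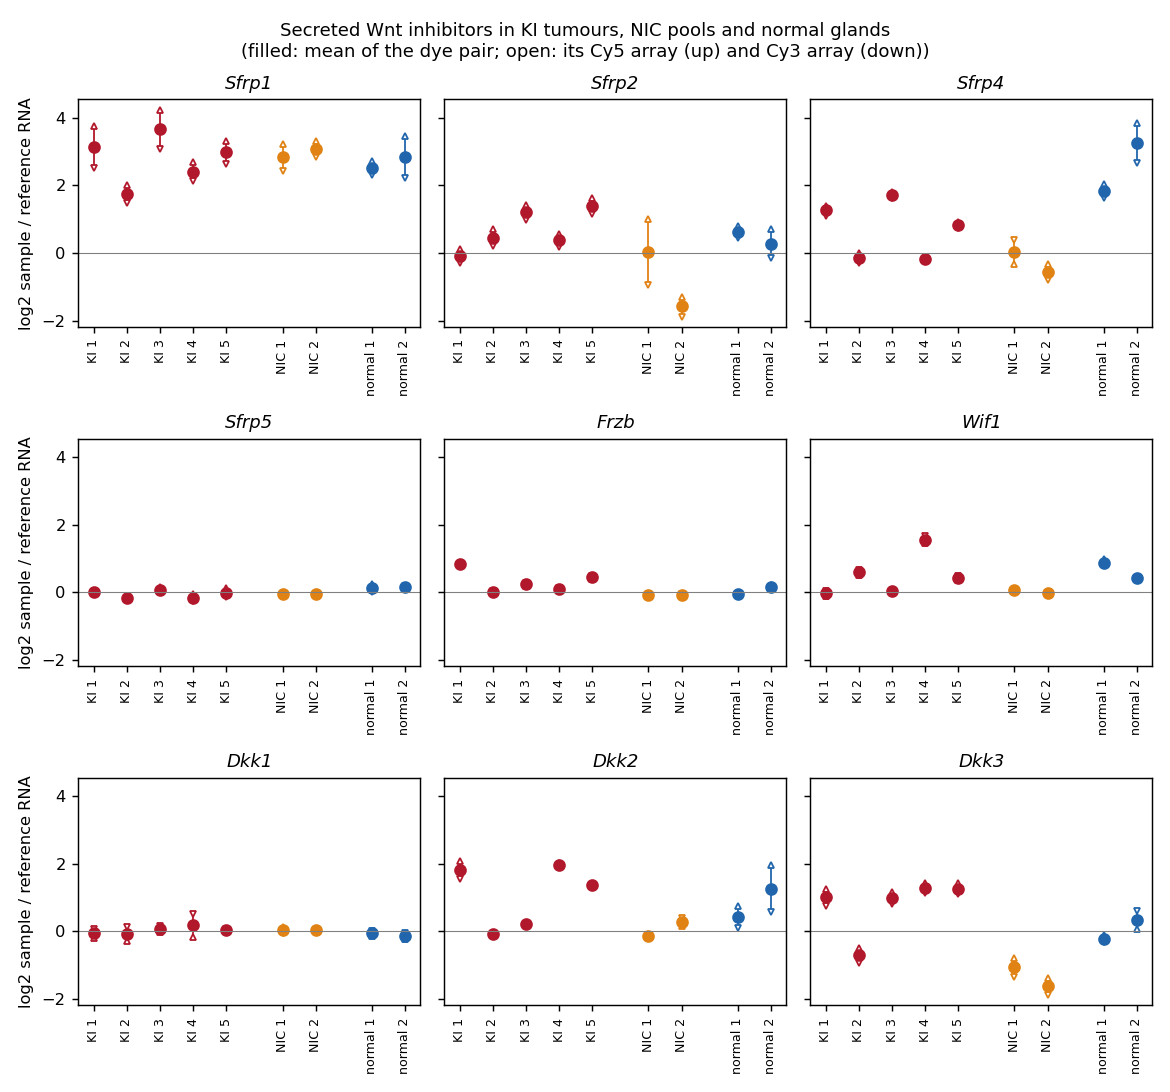
Levels of the 9 secreted Wnt inhibitors as log2 ratio over the reference RNA (y axis) in every RNA sample (x axis; KI tumours red, NIC pools orange, normal glands blue). Filled points are means of the dye pair, open triangles its Cy5-labelled (up) and Cy3-labelled (down) arrays. Sfrp4 reaches at most 1.72 in a tumour sample, against 1.83 and 3.26 in the normal glands, and Sfrp5 and Dkk1 stay near 0 throughout.

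Sfrp4, a Wnt-binding protein studied in bone and fat, had levels of 1.26, −0.15, 1.72, −0.19 and 0.83 in KI tumours 1 to 5, of 0.04 and −0.56 in the NIC pools, and of 1.83 and 3.26 in the normal glands. All tumour samples lay below both glands, KI tumour 3 only narrowly so, and the KI tumours split into a higher set of 3 and a pair near 0. Sfrp4 fell 3.6-fold in KI tumours against normal glands (−1.85 ± 0.62 SE; limma adjusted p = 0.0457). In NIC pools against normal glands the difference was larger, at −2.81 ± 0.581, but with 2 samples a side it missed the threshold (limma adjusted p = 0.0537). It passed with Cy5-labelled samples alone (−3.27, adjusted p = 0.0494) and with the mean of all probes (adjusted p = 0.0487). It also passed with all 9 RNA samples in the fit (adjusted p = 0.0226) and in a block fit (adjusted p = 0.00322). It did not pass with Cy3-labelled samples alone (−2.34, adjusted p = 0.108) or after scaling to 1 interquartile range (−1.84, adjusted p = 0.057). KI minus NIC was 0.96 ± 0.62 (limma adjusted p = 0.429). The call in KI against normal was lost when normal gland 2 was left out (−1.14, adjusted p = 0.300; the lone gland is then assumed to vary like the other groups) and when arrays were scaled to 1 interquartile range (−0.84, adjusted p = 0.349). It was also lost, at differences of −1.56 to −1.99 and adjusted p of 0.051 to 0.0843, without KI tumour 1, 2, 4 or 5, with the Cy3-labelled samples alone, and with KI and normal samples alone in the fit. Leaving out either NIC pool gave the same values as the last, since a lone pool adds nothing to the spread. In whole tissue, fewer cells of a type and less RNA per cell cannot be told apart.

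Sfrp2, a Wnt-binding protein that fibroblasts can secrete, stood at −0.09, 0.45, 1.20, 0.38 and 1.40 in KI tumours 1 to 5, at 0.04 and −1.58 in the NIC pools, and at 0.63 and 0.27 in the normal glands. NIC pool 2 was the lowest sample, and KI tumours overlapped with both other groups. The 2 arrays of NIC pool 1 disagreed for this gene, with 1.02 on the Cy5-labelled and −0.94 on the Cy3-labelled array. A dye pair differed by a median of 0.209 over all probes and samples. KI minus NIC was 1.44 ± 0.523 (limma adjusted p = 0.161), 1.86 with the Cy3-labelled samples alone (adjusted p = 0.0459) and 1.03 with the Cy5-labelled samples alone (adjusted p = 0.351). A block fit of all arrays, where the spread within dye pairs counts too, called Sfrp2 at the same 1.44 (adjusted p = 0.0406). It was 2.25 without NIC pool 1 and 0.63 without NIC pool 2, neither of them called. NIC minus normal was −1.23 ± 0.623 (limma adjusted p = 0.237), with −2.04 without NIC pool 1 and −0.41 without NIC pool 2, and KI minus normal was 0.22 ± 0.523 (limma adjusted p = 0.771).

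Sfrp1, the family member named above for silencing in human tumours, was far above the reference in every sample. Its levels were 3.14, 1.74, 3.66, 2.41 and 2.99 in KI tumours 1 to 5, 2.83 and 3.08 in the NIC pools, and 2.52 and 2.84 in the normal glands. KI tumour 2 was the lowest and KI tumour 3 the highest, and each pair of groups overlapped. KI minus normal was 0.11 ± 0.461 (limma adjusted p = 0.872), NIC minus normal 0.28 ± 0.175 (limma adjusted p = 0.322) and KI minus NIC −0.17 ± 0.461 (limma adjusted p = 0.881). Scaling all arrays to 1 interquartile range gave 1.22 for NIC minus normal (adjusted p = 0.0161) and 1.32 for KI minus normal (adjusted p = 0.0994). Interquartile ranges over all probes were 0.42 to 0.562 on KI arrays and 0.512 to 0.554 on NIC arrays, against 0.76 to 0.971 on the normal arrays.

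A further probe carries no gene name of its own, but its description assigns it to the transcript cluster TC1002499 of Sfrp1, so it did not count toward the 10. It read 1.41, 0.30, 2.45, 0.93 and 1.54 in KI tumours 1 to 5, 2.92 and 2.88 in the NIC pools, and 0.51 and 0.57 in the normal glands. Both pools lay above all other samples. In the fit over all probes this transcript was higher in NIC pools than in normal glands (2.36 ± 0.0944; limma adjusted p = 0.00936). KI minus normal was 0.79 ± 0.49 (limma adjusted p = 0.235). For NIC against normal the named Sfrp1 probe (0.28, not called) and the TC1002499 probe (2.36, called) thus had the same sign but differed in size. Which transcripts each detects was not tested.

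Sfrp5, whose product binds Wnt proteins as the other Sfrp proteins do, kept to a narrow band around the reference. Its levels were 0.00, −0.17, 0.08, −0.16 and −0.01 in KI tumours 1 to 5, −0.04 and −0.04 in the NIC pools, and 0.12 and 0.16 in the normal glands. All tumour samples lay below both glands, by small amounts. KI minus normal was −0.19 ± 0.082 (limma adjusted p = 0.0973) and NIC minus normal −0.18 ± 0.0939 (limma adjusted p = 0.252).

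Frzb, the Wnt antagonist first known from cartilage, was at 0.83, 0.02, 0.23, 0.09 and 0.45 in KI tumours 1 to 5, at −0.08 and −0.07 in the NIC pools, and at −0.04 and 0.15 in the normal glands. KI tumour 1 was the highest, and all KI tumours exceeded both NIC pools. KI minus NIC was 0.40 ± 0.21 (limma adjusted p = 0.319), KI minus normal 0.27 ± 0.21 (limma adjusted p = 0.346) and NIC minus normal −0.14 ± 0.116 (limma adjusted p = 0.446). With the scanner software's ratio KI minus NIC was 1.11 and KI minus normal 0.98, neither called, and without KI tumour 1 they were 0.28 and 0.14. Frzb was the dimmest of the 9 genes, with only 8.23% of all probes dimmer on the KI arrays. Its reference channel had a median of 1.36 times the negative control spots, and exceeded their 95th percentile on 9 of the 10 KI arrays.

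Wif1, the Wnt inhibitory factor with its own Wnt-binding domain, ranged widely among KI tumours. Its levels were −0.03, 0.59, 0.05, 1.56 and 0.42 in KI tumours 1 to 5, 0.06 and −0.02 in the NIC pools, and 0.88 and 0.42 in the normal glands. KI tumour 4 was above both glands, while KI tumours 1 and 3 and both pools sat at the level of the reference. NIC minus normal was −0.64 ± 0.198 (limma adjusted p = 0.107), KI minus normal −0.13 ± 0.406 (limma adjusted p = 0.817) and KI minus NIC 0.50 ± 0.406 (limma adjusted p = 0.536). NIC minus normal was −0.40 without normal gland 1 and −0.87 without normal gland 2 (adjusted p = 0.0502), and KI minus NIC was 0.24 without KI tumour 4. Wif1 was called in NIC against normal under 1 alternative, the fit of all arrays that treats each RNA as a random block (adjusted p = 0.00955).

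**Figure D2:**
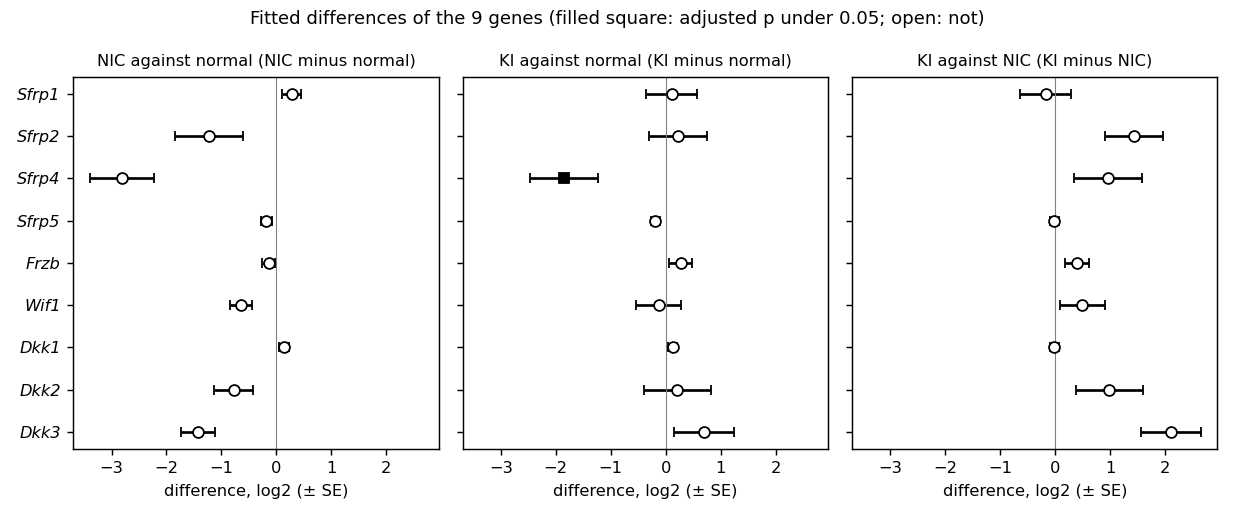
Fitted differences of the 9 genes in log2 units (x axis; points with bars of 1 SE) for NIC minus normal, KI minus normal and KI minus NIC. Filled squares passed an adjusted p under 0.05 over all genes: Sfrp4 in KI against normal, at −1.85, is the only such point, and Dkk3 in KI against NIC lies at 2.11.

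Dkk3, the divergent Dickkopf relative, had the largest fitted difference between the tumour groups of the 9 genes. Its levels were 1.01, −0.71, 1, 1.28 and 1.27 in KI tumours 1 to 5, −1.06 and −1.62 in the NIC pools, and −0.21 and 0.35 in the normal glands. Of the KI tumours 4 lay above both glands within a narrow range, and KI tumour 2 lay below both glands. Every KI tumour was above both NIC pools, and both pools were below both glands. KI minus NIC was 2.11 ± 0.544, a 4.33-fold difference that missed the threshold (limma adjusted p = 0.0655). It passed without KI tumour 2 (2.48, adjusted p = 0.00515), with KI values taken from scanner intensities (1.83, adjusted p = 0.0155), with the scanner software's ratio (1.91, adjusted p = 0.0334) and with all arrays in a block fit (adjusted p = 0.0016). NIC minus normal was −1.42 ± 0.308 (limma adjusted p = 0.0584). It was called with all arrays in a block fit (adjusted p = 0.00517) and after scaling to 1 interquartile range (−1.36, adjusted p = 0.0362). KI minus normal was 0.70 ± 0.544 (limma adjusted p = 0.339), and 1.07 with a call once KI tumour 2 was left out (adjusted p = 0.0095).

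Dkk2, the Dickkopf protein with context-dependent effects, took separate levels among the KI tumours. It was at 1.82, −0.09, 0.23, 1.97 and 1.37 in KI tumours 1 to 5, at −0.14 and 0.27 in the NIC pools, and at 0.42 and 1.27 in the normal glands. KI tumours 1, 4 and 5 were above both glands, whereas KI tumours 2 and 3 were within the range of the NIC pools. KI minus NIC was 0.99 ± 0.611 (limma adjusted p = 0.402), NIC minus normal −0.78 ± 0.363 (limma adjusted p = 0.206) and KI minus normal 0.21 ± 0.611 (limma adjusted p = 0.808). NIC minus normal was −1.21 without normal gland 1 and −0.36 without normal gland 2. The 2 arrays of normal gland 2 differed by 1.41 for this gene.

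Dkk1, the Lrp5/6 antagonist whose promoter held 3 TCF/LEF core matches, was the least variable of the 9. On the brighter probe (A_51_P379069) it was at −0.06, −0.08, 0.07, 0.18 and 0.05 in KI tumours 1 to 5, at 0.05 and 0.04 in the NIC pools, and at −0.06 and −0.13 in the normal glands. The 9 samples spanned 0.31 on that probe and 0.17 on the other (A_52_P508391). Both probes were dim, with 17.2% and 14.4% of all probes dimmer. On the KI arrays their median signals were 2.35 and 2.01 times the negative controls in the tumour channel, and 2.1 and 1.93 times in the reference channel. A ratio of 2 signals so near the controls can stay near 0 when RNA amounts differ. The part of dimness in the narrow range was not tested. KI minus normal was 0.13 ± 0.0806 (limma adjusted p = 0.250), NIC minus normal 0.14 ± 0.0966 (limma adjusted p = 0.365) and KI minus NIC −0.01 ± 0.0806 (limma adjusted p = 0.957). On the other probe the groups of NIC against normal overlapped (−0.02), and KI minus normal was −0.10, so the probes differed in sign in both comparisons without a call on either.

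Groups without overlap were counted as well. In NIC against normal 8 of 9 inhibitors had groups that did not overlap (7 lower in NIC, and Dkk1 higher on its brighter probe alone), where, as given above, 71.2% of all genes did so. In KI against normal Sfrp4 and Sfrp5 did not overlap, 2 of 9, against 54.1% of all genes. In KI against NIC these were Frzb and Dkk3, 2 of 9, against 31.2% of all genes. NIC against normal and KI against normal share the 2 normal glands.

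**Figure D3:**
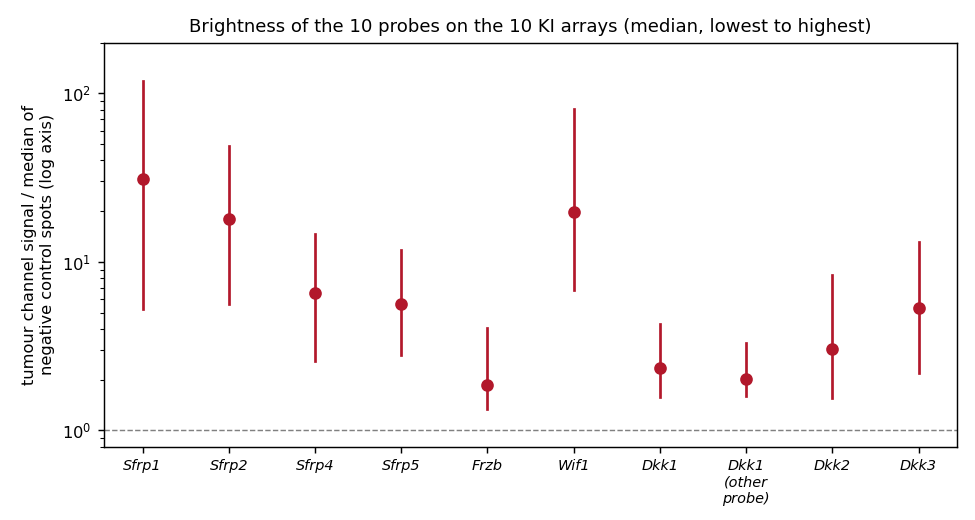
Signal of the 10 probes on the 10 KI arrays, tumour channel over the median of the negative control spots (log axis; points are medians, lines run from the lowest to the highest array). Sfrp1, Wif1 and Sfrp2 have medians of 30.9, 19.7 and 17.9, while Frzb, both Dkk1 probes and Dkk2 lie between 1.85 and 3.04.

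Brightness was read on the KI arrays, the only ones with scanner values used here. All 10 probes were well above background on 10 of 10 arrays by the scanner software's mark, and none was saturated. This mark passed 93.4% of all probes on all 10 arrays, so it separates little. Signal over the median of 314 negative control spots had a median of 30.9 for Sfrp1, 19.7 for Wif1, 17.9 for Sfrp2, 6.5 for Sfrp4, 5.65 for Sfrp5 and 5.29 for Dkk3. It was 3.04 for Dkk2, 2.35 and 2.01 for the Dkk1 probes, and 1.85 for Frzb.

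Marker genes of the cell types in the tissue were measured on the same arrays. Over all genes, as given above, 24.8% fell and 17.8% rose in KI against normal, and 9.81% fell and 8.8% rose in NIC against normal. Of 12 adipocyte markers 9 fell in KI tumours and 9 in NIC pools against normal glands, and the list's mean level was −0.02 to 1.29 in KI tumours, −0.04 to 0.81 in NIC pools and 3.74 to 4.27 in normal glands. Of 14 fibroblast markers 4 fell in KI and 7 in NIC, with mean levels of −0.76 to 1.07 in KI tumours, −0.98 to −0.09 in NIC pools and 1.38 to 1.62 in normal glands. Of 10 endothelium markers 3 fell in KI and 6 in NIC, with mean levels of 1.06 to 2.40, 1.30 to 1.74 and 2.93 to 3.09 in KI, NIC and normal samples. Luminal epithelium markers rose in 10 of 12 cases in each tumour group. Of 12 basal and myoepithelial markers 6 fell and 3 rose in KI, and 6 fell and 1 rose in NIC. Of 10 leukocyte markers 2 fell and 1 rose in KI, and 4 fell and 2 rose in NIC.

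KI tumour 2 was the lowest KI tumour for Dkk3, Dkk2 and Sfrp1, and by small margins for Sfrp5, Frzb and Dkk1 (brighter probe). It had the lowest mean of the KI tumours for the fibroblast (−0.76), endothelium (1.06), leukocyte (−0.44) and basal and myoepithelial (0.00) lists. It was also lowest for each list of Wnt pathway genes described below, but not for the adipocyte (0.40) or luminal (3.39) lists. It had the highest KI mean for 8 skeletal muscle markers, 0.87 against −1.01 to −0.71 in the other 4 KI tumours, with −1.32 to −1.30 in the NIC pools and −0.93 and 1 in the normal glands. Of the 3 KI tumours with the higher Sfrp4 levels, tumours 1, 3 and 5, the fibroblast means were 0.48, 1.07 and 0.77, against −0.76 and −0.01 in tumours 2 and 4. The same tumours were also the higher ones for the endothelium list (2.14, 2.40 and 2.28, against 1.06 and 1.91) and the leukocyte list (0.27, 0.25 and 0.19, against −0.44 and −0.26). The adipocyte list (0.11, 1.29 and 0.80, against 0.40 and −0.02) did not split the tumours this way. Neither did the basal and myoepithelial list (0.29, 1.30 and 1.17, against 0.00 and 0.96), nor the luminal and skeletal muscle lists. The part of cell type makeup in the levels of Sfrp4, Dkk3 or any other inhibitor was not tested. Erbb2 itself, the gene in the KI label, stood at 2.04 to 4.22 in KI tumours, 1.68 to 1.82 in NIC pools and −0.07 to −0.06 in normal glands.

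**Figure D4:**
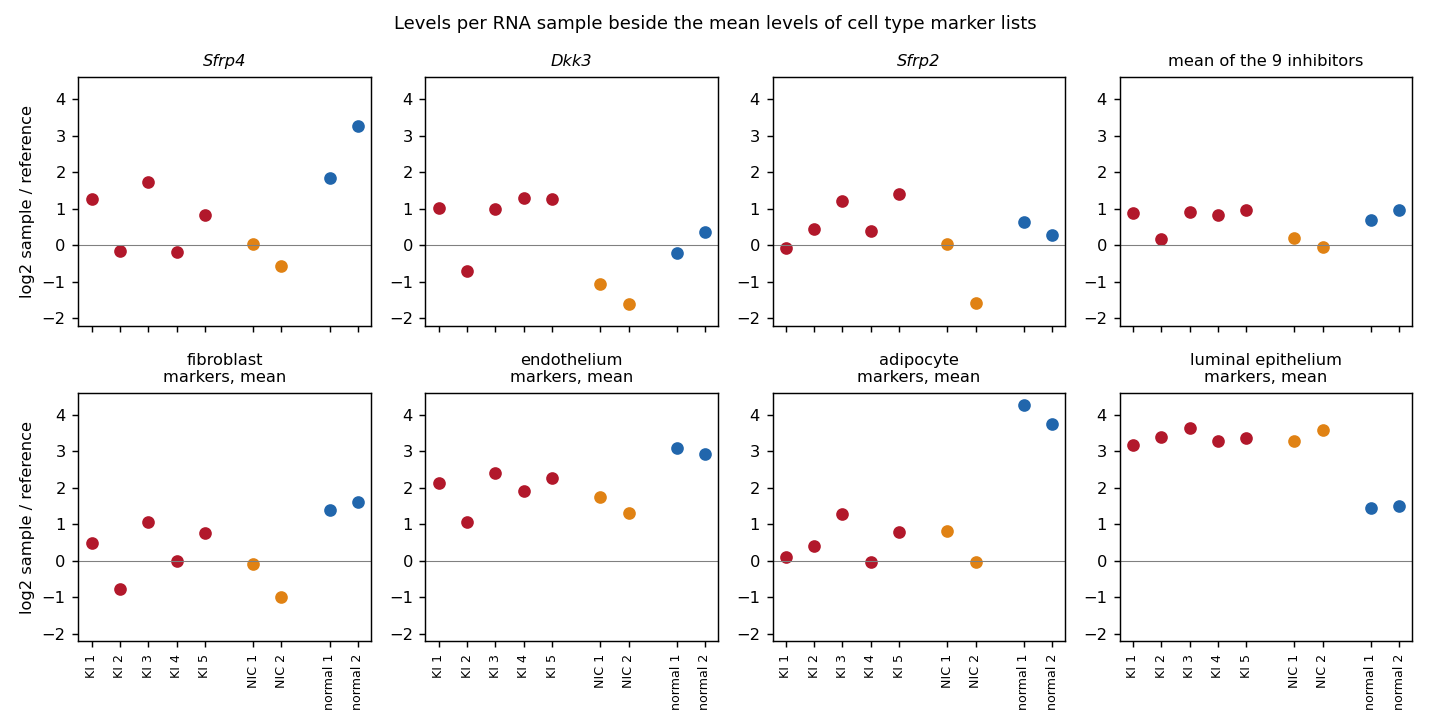
Levels per RNA sample (log2 ratio over the reference, y axis) of Sfrp4, Dkk3, Sfrp2 and the mean of the 9 inhibitors (upper panels), above the mean levels of 4 cell type marker lists (lower panels), with KI tumours red, NIC pools orange and normal glands blue. KI tumour 2 is lowest of the KI tumours for Dkk3 (−0.71) and for the fibroblast (−0.76) and endothelium (1.06) markers.

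Other extracellular inhibitors of the pathway offer a comparison from a list of 15 genes, 13 of them measured. In KI against normal 3 rose and 5 fell, in NIC against normal 1 rose and 4 fell, and in KI against NIC 1 rose and 1 fell. The shares of all genes called in these comparisons were 42.7%, 18.6% and 6.13%. Dkkl1, a relative of Dkk3 known from the testis, fell in KI tumours against normal glands (−1.20 ± 0.139; limma adjusted p = 0.000728) and against NIC pools (−1.70 ± 0.139; limma adjusted p = 0.00233). Apcdd1, an inhibitor that binds Wnt proteins and Lrp5 at the cell surface, fell 36.9-fold in NIC pools against normal glands (limma adjusted p = 0.0200). Igfbp4, an insulin-like growth factor binding protein that can also block Wnt receptors, fell in NIC pools against normal glands (−1.30 ± 0.191; limma adjusted p = 0.0304) and was higher in KI tumours than in NIC pools (1.41 ± 0.278; limma adjusted p = 0.0316). Kremen2, a receptor through which Dkk1 acts, fell in KI tumours (−0.93 ± 0.0814; limma adjusted p = 0.000276) and in NIC pools (−0.86 ± 0.137; limma adjusted p = 0.0351). Of the 3 that rose in KI against normal, Notum differed by 0.54 ± 0.141 (limma adjusted p = 0.0185). Draxin differed by 0.52 ± 0.134 (limma adjusted p = 0.0175) and Kremen1 by 0.35 ± 0.0701 (limma adjusted p = 0.00655). In NIC against normal Draxin rose (1.01 ± 0.158; limma adjusted p = 0.0340) and Kremen1 was not called (0.42 ± 0.111; limma adjusted p = 0.0809).

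The targets of the inhibitors were measured on the same arrays. Their counts stand beside 42.7% of all genes called in KI against normal, 18.6% in NIC against normal and 6.13% in KI against NIC. Of 19 Wnt ligands 2 rose and 3 fell in KI against normal, 1 fell in NIC against normal, and 1 rose in KI against NIC. Of 15 Wnt receptors 4 rose and 2 fell in each tumour group against normal glands, and 2 fell in KI against NIC. Lrp5, a co-receptor that Dkk1 binds, rose 5.95-fold in KI tumours (limma adjusted p = 0.000305) and 12.8-fold in NIC pools (limma adjusted p = 0.0143). It was lower in KI tumours than in NIC pools (−1.11 ± 0.233; limma adjusted p = 0.0377). Lrp6, the other co-receptor, was not called. KI minus normal was 0.04 ± 0.505 (limma adjusted p = 0.959) and NIC minus normal 0.09 ± 0.756 (limma adjusted p = 0.941). Rspo1, a secreted activator of the pathway, fell 19-fold in KI tumours (limma adjusted p = 7.34e-05) and 18.6-fold in NIC pools (limma adjusted p = 0.0190), and of the 7 R-spondin and Lgr genes the only other call was Rspo3, lower in KI tumours (−0.40 ± 0.0859; limma adjusted p = 0.00871). Of 14 measured feedback and target genes 4 rose and 1 fell in KI against normal, 3 rose and 3 fell in NIC against normal, and 2 rose in KI against NIC, Tcf7 and Tcf7l1. The largest of these differences were those of Axin2, a feedback inhibitor inside the cell, which fell 25.6-fold in NIC pools against normal glands (limma adjusted p = 0.00781), and of Myc, which rose 10.2-fold in KI tumours against normal glands (limma adjusted p = 0.00265).

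The genes whose levels followed an inhibitor most closely were found by the root mean square difference over the 9 RNA samples, after each gene was centred on its mean, for inhibitors that spanned at least 2 log2 units. For Sfrp4 these were Serpinf1 (0.295), Slit3 (0.331) and Rarres2 (0.372), where Sfrp4 itself varied by 1.17 around its mean. For Dkk3 they were Il1rn (0.348), Hs6st2 (0.359) and Gpr176 (0.360), where Dkk3 varied by 1.03. For Sfrp2, which varied by 0.811, they were Cep128 (0.381), Dhrs9 (0.402) and Fmod (0.409). For Dkk2, which varied by 0.773, they were Vsir (0.327), Ephb2 (0.351) and Ccdc71l (0.365). No inhibitor was among the 3 closest genes of another. Among these 4 inhibitors the closest pair was Dkk2 and Dkk3, at 0.670.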

How the data were processed

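Expression was measured on 18 2-colour Agilent arrays of 9 RNA samples. The 2 tables the authors deposited give a log2 ratio of sample over reference for every spot. How they were made is not stated here beyond RMA, named without a role in the submitters' processing notes. For the KI arrays the deposited scanner files also hold spot intensities and a log10 ratio, made with Agilent Feature Extraction (version A.7.5.1 per the file headers). After normexp (offset 50) and loess, these intensities correlated with the KI columns at r = 0.9825 to 0.9884. For the normal and NIC table, scale, direction and spot layout were taken to be the same. Dye pairs correlated at 0.824 to 0.943.

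Control spots (2256) were left out, and spots of 1 probe were averaged. Of several probes of a gene, the brightest on the KI arrays stood for it. Probe names were updated through a RefSeq table. Tests used limma 3.58.1 in R 4.3.3 (lmFit, eBayes, two-sided, Benjamini-Hochberg over 28922 genes). NIC against normal was fitted on its 4 RNA samples. The other comparisons came from a fit of all 9, where pools and single tumours share an estimate of spread. All 9 inhibitors were named, other genes mostly where called in a list (at most the 4 largest differences per list) or closest to an inhibitor. Erbb2 and Lrp6 were named besides, as were Notum, Draxin and Kremen1. The members, lists and tests were chosen with earlier results of these data known. The number of arrays limits the precision.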

Additional observations from a re-analysis of the deposited data

Results flagged for a closer look

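In the 5 KI tumours Dkk3 had 1 sample far from the others: KI tumour 2 was at −0.71, and the nearest other tumour at 1. The gap between them was 0.86 of the group's whole range, above Dixon's critical value of 0.71 for 5 samples. Of the 9 inhibitors tested this way, Dkk3 alone passed, and chance gives about 1 such group in 20. Both arrays of the tumour were low (−0.50 on the Cy5-labelled and −0.93 on the Cy3-labelled array).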

How the results depend on the processing

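Differences of the 9 inhibitors were recomputed with 1 dye, another fit, scaling or filter, other KI values, or 1 RNA sample left out. The number called in NIC against normal (0) became 1 with Cy5-labelled samples, the mean of all probes or all 9 RNA samples in the fit (Sfrp4 each time). It became 2 after scaling to 1 interquartile range (Dkk3 and Sfrp1) and 3 with all arrays in a block fit (Dkk3, Sfrp4 and Wif1). It was 0 to 1 with 1 sample left out; without either NIC pool limma called 0 of all genes, although 6404 (without pool 1) and 6971 (without pool 2) had an unadjusted p under 0.05. In KI against normal (1) it became 0 with Cy3-labelled samples, after scaling, with the 2 groups alone in the fit, and among genes above the median signal, where Sfrp4 was not tested. With 1 KI tumour left out it was 0 without tumour 1, 4 or 5. It was 1 without tumour 3 (Sfrp4) and 1 without tumour 2, where Dkk3 was called and Sfrp4 was not. In KI against NIC (0) it became 1 with Cy3-labelled samples, with scanner intensities and with the software's ratio, 2 with all arrays in a block fit, and 0 to 1 with 1 sample left out.

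Signs that reversed belonged to differences never called. For Dkk2 in KI against normal these were −0.24 (Cy5-labelled), −0.10 (scanner intensities), −0.21 (without normal gland 1) and −0.02 (without KI tumour 4), in a range of −0.21 to 0.64 with 1 sample left out. For Sfrp1 in KI against normal they were −0.37 (scanner intensities), −0.18 (software's ratio), −0.05 (without normal gland 1) and −0.11 (without KI tumour 3; range −0.11 to 0.37), and in KI against NIC 0.10 (scaling) and 0.09 (without KI tumour 2; range −0.39 to 0.09). For Wif1 in KI against normal they were 0.16 (scaling), 0.10 (without normal gland 1) and 0.0025 (without KI tumour 1; range −0.40 to 0.10). For Dkk1 in KI against NIC they were 0.20 (Cy3-labelled), 0.0017 (scaling), 0.05 (software's ratio), 0.01 (without KI tumour 1) and 0.02 (without KI tumour 2; range −0.05 to 0.02). For Sfrp5 in KI against NIC they were 0.06 (Cy5-labelled) and 0.01 (scanner intensities, and without KI tumour 2 or 4; range −0.05 to 0.01). The cause was not tested.

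Over all genes, calls in NIC against normal numbered 5381, but 2039 with Cy3-labelled samples, 10637 in the block fit and 10379 with all 9 samples. In KI against normal they numbered 12341, but 8053 after scaling. In KI against NIC they numbered 1773, but 3706 with scanner intensities and 4019 in the block fit. With 1 KI tumour left out they numbered 857 to 2095 in KI against NIC. Without either NIC pool there were fewer still, from a fit with only 1 NIC sample. Under the filter for genes above the median signal, only 15978 genes were tested. Of these, 7198 were called in KI against normal and 983 in KI against NIC. Those counts come from fewer genes and so do not show a loss of calls. No paired analysis was possible because the labels give the groups no shared replicate numbers. Where a group is left with 1 sample, that sample is assumed to vary like the other groups. Frzb, Dkk1 and Dkk2 were the dimmest of the 9 genes, with medians of 1.85 to 3.04 times the negative controls.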
